A study of Brassica napus with 12 samples.

Results

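The genes described here make and export the cuticular wax of Brassica napus leaves. They were chosen as all loci matched to 9 named Arabidopsis genes in the annotation of the UV-B comparison: KCS6 (AT1G68530), CER1 (AT1G02205), CER3 (AT5G57800), CER4 (AT4G33790), MAH1 (AT1G57750), WSD1 (AT5G37300), ABCG11 (AT1G17840), ABCG12 (AT1G51500) and the regulator MYB96 (AT5G62470). The rule found 49 loci among the 101040 in the files. Of these, 37 reached at least 1 FPKM (fragments mapped to a locus, scaled by its transcript length and by the fragments mapped in the library) in at least 2 libraries and were tested among 50280 loci. The other 12 never exceeded 0.975 FPKM, and 5 of them were listed at 0 in every library.

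Transcripts were measured by RNA-seq in true leaf tissue of the B. napus genotype RV31, 21 days old and raised at a white light fluence of 70 µmol m−2 s−1 in all groups. The 6 groups of 2 libraries, replicates 41 and 42, were UV-B (3 µmol m−2 s−1 for 4 h), herbivory (1 h of feeding by Plutella xylostella larvae, then 3 h without UV-B per the series' design text or 4 h after the larvae were taken off per the study's methods), MeJA (methyl jasmonate, 4 mL at 100 µM), ethanol-UN65 (4 mL of 0.01% ethanol with 0.01% UN65), water (4 mL of distilled water), and white light (the growth fluence, without UV-B). Leaves of the 3 sprayed groups and of white light were harvested at 4 h, as were those of UV-B. White light served as control for UV-B and herbivory, and water and ethanol-UN65 for MeJA. The study's methods kept sprayed and herbivory plants under a lower white light fluence than the white light plants and covered the sprayed plants. Herbivory plants stood in mesh cages in a cabinet set warmer than that of growth. Light, cover and spray therefore cannot be told apart in comparisons of water with white light. The same holds for light, cage, temperature and feeding in comparisons of herbivory with white light. In comparisons of herbivory with water, feeding, cage, spray, cover and any difference in temperature cannot be told apart. Unfed caged control plants are described in the methods, but no library is labelled as such a control. The study's methods state that RNA of independent replicates was pooled per treatment before sequencing, whereas the series' design text describes biological replicates. How plants were divided between replicates 41 and 42 is not stated, so p-values measure only the spread between these libraries, which may be technical.

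Plant cuticular wax is built in the epidermis from very-long-chain fatty acids. A condensing enzyme such as KCS6 lengthens the acyl chain, after which a branch through CER3 and CER1 makes aldehydes and alkanes that MAH1, a cytochrome P450, hydroxylates to secondary alcohols and ketones. The other branch runs through CER4, a fatty acyl-CoA reductase that makes primary alcohols, and WSD1, which joins these to acyl groups as wax esters. The transporters ABCG11 and ABCG12 carry wax across the plasma membrane, and in Arabidopsis the transcription factor MYB96 activates wax genes under drought and abscisic acid.

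Few wax loci were called. Under UV-B 32 of the 37 loci had lower means than in white light, but none passed the test. In MeJA over water 2 MAH1 loci were called higher, where 0.436% of all tested loci were, and neither was called over ethanol-UN65. Both calls depended on single libraries. The MAH1 locus with the highest mean had overlapping MeJA and water libraries. Of the 9 gene totals only that of MYB96 differed among the 6 groups, where 10.8% of all gene totals did, which is near the background. Its lowest totals were in MeJA and water leaves. Replicates of white light, water and MeJA differed widely in nearly all of the 9 genes at once, by up to 5.42-fold for MAH1 in white light.

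FPKM were rescaled to make libraries comparable and tested as log2(FPKM + 1) in limma. A locus was called where its p, adjusted by Benjamini-Hochberg over all tested loci, was under 0.05 and its log2 fold change was 1 or more, or -1 or less. Fold changes on this scale understate those of low loci. Because B. napus holds A and C genome copies of each gene, and reads of near-identical copies can be split between them, the FPKM of all loci matched to 1 Arabidopsis gene were also summed as a gene total. Marker genes of the treatments were measured as a check of the labels. Loci called higher numbered 9 of 20 for the UV-B response genes (CHS, ELIP1, HY5, RUP2) in UV-B over white light and 7 of 26 for the jasmonate response genes (JAZ1, VSP2, LOX2) in MeJA over water. The jasmonate list had 0 of 26 called in MeJA over ethanol-UN65, with 13 higher and 13 lower, and 0 in herbivory over white light, with 20 higher. In ethanol-UN65 over water 26 of 26 were higher, with 0 called. Herbivory over water gave 4 called higher, where 0.642% of all tested loci were, with 21 of 26 higher. In water over white light 20 of 26 were lower, with 0 called. The water libraries lay below both white light libraries at 16 of these 26, where 27% of all tested loci did. Leaf and epidermal genes marked the tissue. Summed mesophyll markers reached 6645 to 39321 FPKM and the epidermal genes ATML1, PDF2, PDF1 and FDH 74.6 to 289 FPKM, whereas root markers stayed at or below 0.178 FPKM, trichome markers at or below 0.474 FPKM and flower markers at or below 1.70 FPKM. The total of deposited FPKM was 625435 to 1101820 per library, and the number of reads is unknown.

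The levels of the 9 genes spanned from MAH1, with a mean total of 269 FPKM over the 12 libraries, to MYB96, with 9.55 FPKM. Between them, in falling order, came KCS6 (220 FPKM), CER1 (215 FPKM), CER4 (205 FPKM), CER3 (176 FPKM), WSD1 (99.9 FPKM), ABCG12 (65.3 FPKM) and ABCG11 (42.5 FPKM). The first 4 genes had no stable order: MAH1 exceeded KCS6 in 7 of 12 libraries, KCS6 exceeded CER1 in 6, and CER1 exceeded CER4 in 6. Lower down, CER3 exceeded WSD1 and ABCG11 exceeded MYB96 in 12 of 12 libraries. The genes also differed in how far they ranged over the libraries, from 2.59-fold for ABCG11 and 2.94-fold for ABCG12 to 14.4-fold for KCS6 and 59.3-fold for MAH1.

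Replicates of 3 groups stood apart in the wax genes, which touches every comparison below. Summed over the 9 genes, the wax total was 1329 and 3577 FPKM in MeJA 41 and 42, 2073 and 898 FPKM in water 41 and 42, and 1550 and 587 FPKM in white light 41 and 42. The other pairs lay closer, at 519 and 445 FPKM in UV-B, 1295 and 1259 FPKM in herbivory, and 984 and 1109 FPKM in ethanol-UN65 leaves. Both UV-B libraries thus had the lowest wax totals of the 12, with white light 42 next above them.

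The replicate differences ran through most loci. In white light, 31 of 37 loci were higher in replicate 41, with a median log2 difference of 0.80. In water leaves 28 of 37 were higher in replicate 41, with a median of 0.86. In MeJA leaves only 3 of 37 were, with a median of -1.01. Over all tested loci the share higher in replicate 41 was 46.6% to 50.5% and the median between -0.03 and 0.01. Differences of at least 1 log2 unit between replicates were seen at 51.4% of the wax loci in MeJA, against 11.7% of all tested loci, at 45.9% in water, against 12.3%, and at 43.2% in white light, against 14.7%. In these groups the epidermal sum differed in the same direction but less. Replicate 42 over 41 was 1.36 for this sum and 2.69 for the wax sum in MeJA. Replicate 41 over 42 was 1.47 against 2.31 in water and 1.69 against 2.64 in white light. This did not extend to the other groups, where replicate 41 over 42 was 1.84 against 1.17 in UV-B, 1.52 against 1.03 in herbivory and 1.06 against 0.89 in ethanol-UN65. Within the sum PDF1 went the other way in MeJA (11.8 and 7.13 FPKM in replicates 41 and 42) and water (42.7 and 47.9 FPKM), unlike ATML1, PDF2 and FDH. The part of epidermal RNA in the wax differences was not tested, and in bulk leaf samples fewer epidermal cells and less RNA per cell cannot be told apart.

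**Figure D1:**
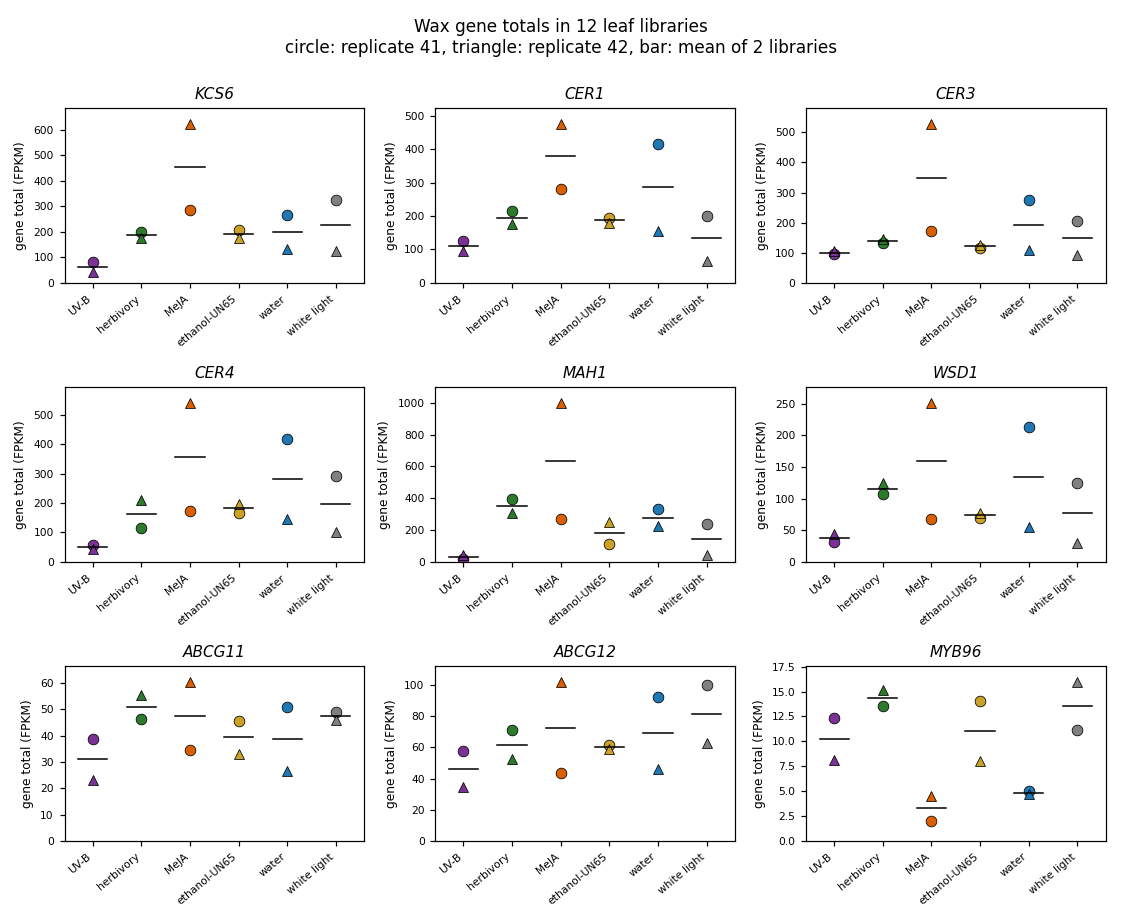
Gene totals of the 9 wax genes in rescaled FPKM, from 0 on each vertical axis, for the 6 groups along the horizontal axis. Circles are replicate 41, triangles replicate 42 and bars the mean of both. KCS6 and CER4 lay lowest in UV-B, MeJA 42 was the highest library for 8 genes, and MYB96 was lowest in MeJA and water.

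The comparison of UV-B with white light asks whether 4 h of UV-B alters wax gene transcripts. The study's methods put these groups on different shelves and do not state for them whether UV-B plants also received white light. UV-B, shelf and any change of white light therefore cannot be told apart. Wax loci were mostly lower in UV-B leaves, with 32 of 37 negative and a median log2 fold change of -0.79, while 49.9% of all tested loci were positive and their median was 0. In limma 0 of 37 wax loci were called, where 3.54% of all tested loci were. At an unadjusted p under 0.05 there were 7 wax loci, all lower, against 21.9% of all tested loci, and the smallest Benjamini-Hochberg adjusted p was 0.124. The UV-B libraries lay below both white light libraries at 17 of 37 loci and above both at 0, where 23.7% and 24.2% of all tested loci did so. Without white light 41, 26 of 37 loci were lower, with a median of -0.57, and without white light 42 there were 35, with a median of -1.15.

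KCS6, the condensing enzyme that supplies very-long-chain precursors to both branches, had totals of 82.7 and 43.2 FPKM in UV-B 41 and 42, against 326 and 127 FPKM in white light 41 and 42. Both UV-B totals were the lowest of the 12 libraries, without overlap with white light. The log2 fold change of the total was -1.75 ± 0.57 (SE, n = 2 libraries each), with an adjusted p of 0.106 in limma after Benjamini-Hochberg adjustment over 17032 genes. No member's total was called in UV-B over white light, where 4.99% of all gene totals were. The KCS6 locus with the highest mean, BnaA09g28510D (A09, 21446043 to 21448366), had 52.7 and 26.7 FPKM in UV-B leaves, against 274 and 90.2 FPKM in white light, a log2 fold change of -2.04 ± 0.67 (adjusted p = 0.124 in limma). It is also the locus behind the smallest adjusted p named above.

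CER4, of the alcohol branch, was low in the same libraries. Its totals were 57.9 and 43.8 FPKM in UV-B leaves, against 293 and 102 FPKM in white light (log2 fold change -1.76 ± 0.71, adjusted p = 0.171 in limma). Its leading locus BnaC01g04460D (C01, 2355371 to 2361388) had 27.8 and 24.1 FPKM in UV-B, against 166 and 46.2 FPKM. The groups did not overlap, and the difference missed the threshold. The A01 copy BnaA01g03200D (A01, 1539794 to 1547472) was at 8.61 and 14.0 FPKM in UV-B, against 93.0 and 23.4 FPKM in white light.

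Within the alkane branch the genes differed from one another. CER1 is carried almost wholly by BnaCnng09200D, on a C genome scaffold with no chromosome (8343373 to 8348498), since its other locus never exceeded 0.574 FPKM. BnaCnng09200D had 125 and 95.1 FPKM in UV-B leaves, against 201 and 66.8 FPKM in white light. Both UV-B values lay between the white light replicates, and the log2 fold change of -0.08 ± 0.62 turned to 0.70 without white light 41 and to 0.11 without UV-B 42. The leading CER3 locus BnaA02g08090D (A02, 3811394 to 3815386) likewise gave 71.5 and 70.7 FPKM in UV-B, against 126 and 57.5 FPKM in white light, and its log2 fold change of -0.26 turned to 0.30 without white light 41.

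Other CER3 copies were lower in UV-B. BnaCnng19590D, on an unplaced C scaffold, had 3.80 and 3.78 FPKM in UV-B, against 20.4 and 6.28 FPKM in white light. The A10 copy BnaA10g11680D was at 4.05 and 2.28 FPKM in UV-B, against 17.7 and 9.60 FPKM. In both copies the groups did not overlap, whereas the A02 copy above and its C02 counterpart BnaC02g11200D (15.0 and 13.9 FPKM in UV-B, against 22.3 and 8.33 FPKM) overlapped. The A02 copy exceeded the C02 copy 4.76- to 6.90-fold in 12 of 12 libraries, so this pair held its ratio while its level varied.

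MAH1, which acts after CER1, had totals of 16.8 and 45.2 FPKM in UV-B leaves, against 239 and 44.1 FPKM in white light. The UV-B 42 and white light 42 totals nearly coincide, so the groups overlap (log2 fold change -1.86 ± 0.88, adjusted p = 0.232 in limma). The log2 fold change was -0.65 without white light 41, -1.17 without UV-B 41 and -3.07 without white light 42. The leading locus BnaA09g15090D (A09, 8762531 to 8764022) was at 2.26 and 8.51 FPKM in UV-B, against 80.6 and 15.2 FPKM in white light, and in the other 4 groups it ranged from 38.7 to 414 FPKM. It was thus lowest in the 2 UV-B libraries, with a log2 fold change of -2.71 ± 1.13 that was not called.

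WSD1 and the transporters had log2 fold changes of their totals between those of KCS6 and CER3. WSD1, the wax ester synthase, had totals of 32.0 and 44.7 FPKM in UV-B, against 125 and 30.0 FPKM in white light, which overlap. Its leading locus BnaA05g12980D (A05, 7658287 to 7663033) had 13.5 and 20.3 FPKM in UV-B, against 58.4 and 12 FPKM, and its log2 fold change of -0.66 turned to 0.43 without white light 41. For the exporter ABCG12, the leading locus BnaC06g08850D (C06, 10491116 to 10495118) had 31.4 and 17.8 FPKM in UV-B, against 46.2 and 30.5 FPKM in white light. These 2 groups overlap narrowly at the locus, but the ABCG12 totals of 58.0 and 34.6 FPKM in UV-B, against 99.9 and 63.0 FPKM, do not. ABCG11 totals were 38.9 and 23.3 FPKM in UV-B, against 49.0 and 45.9 FPKM in white light, without overlap. Its leading locus BnaC05g13800D (C05, 7977519 to 7981206) had 15.7 and 8.15 FPKM in UV-B, against 14.9 and 16.2 FPKM, which overlap.

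**Figure D2:**
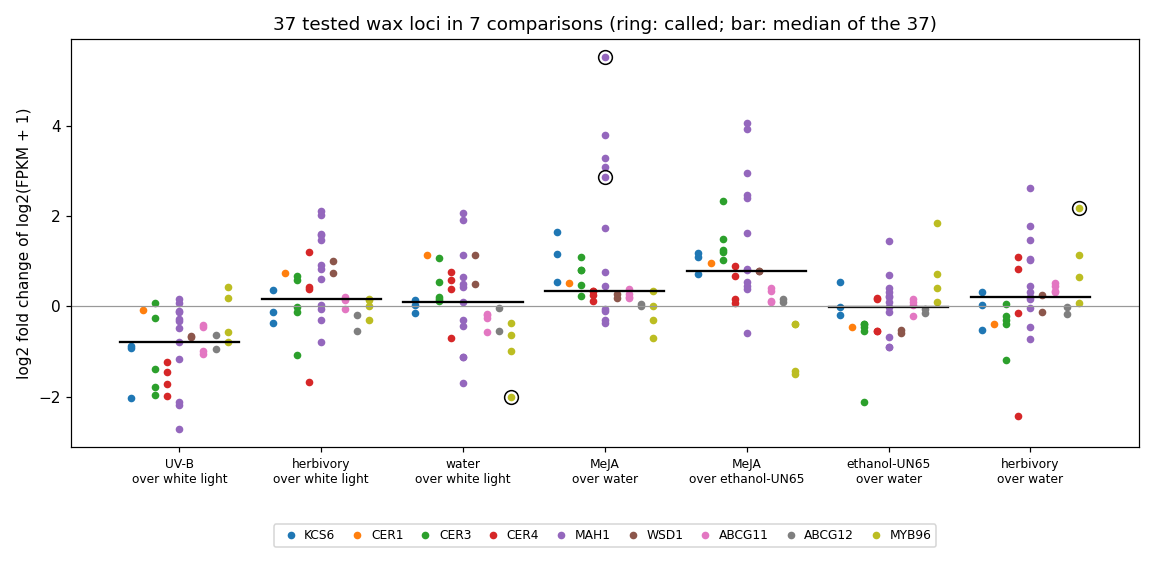
Log2 fold changes of log2(FPKM + 1) for the 37 tested wax loci in 7 comparisons along the horizontal axis, coloured by gene. Rings mark called loci and bars the median of the 37. In UV-B over white light the loci ran from -2.71 to 0.44 with a median of -0.79, and the highest point, at 5.53, is a MAH1 locus in MeJA over water.

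Wax genes outside the 9 were measured for the same comparison. Of 39 tested loci for fatty acid elongation and activation (among them KCS1, KCS2, CER2, CER10, PAS2, LACS1 and LACS2), 32 were lower in UV-B, with a median of -0.65, and 18 lay below both white light libraries, where 23.7% of all tested loci did. None was called, where 3.54% of all tested loci were. KCS1, another condensing enzyme, leads this list with BnaC08g46130D, at 37.4 and 12.6 FPKM in UV-B, against 133 and 48.8 FPKM in white light. Other wax loci numbered 15, of which 11 were lower and 0 called, and the highest of these, BnaA01g35710D for the lipid transfer protein LTPG2, had 37.8 and 32.7 FPKM in UV-B, against 85.5 and 36.7 FPKM. Cutin loci were lower at 21 of 26, with 0 called, and epidermal loci at 16 of 18, with a median of -0.51 and 0 called. Of the 18, 2 lay below both white light libraries and 1 above both, where 23.7% and 24.2% of all tested loci did. Within the epidermal list the PDF1 total was higher, at 7.04 and 1.67 FPKM in UV-B, against 1.54 and 0.367 FPKM. Guard cell loci were higher at 6 of 9, with 4 above both white light libraries and 0 below both. Phloem loci were higher at 5 of 9, with 5 above both and 0 below both. The epidermal sum was 137 and 74.6 FPKM in UV-B, against 196 and 116 FPKM in white light, overlapping, and mesophyll loci were lower at 14 of 14, with a median of -1.38. The UV-B libraries lay below both white light libraries at 13 of these 14, and 2 loci of the light-harvesting gene LHCB3 were called lower. The part of these cell type genes in the wax values was not tested.

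Under herbivory, wax loci were called neither higher nor lower than in white light. Of 37 loci 24 were higher, with a median log2 fold change of 0.16 that turned to -0.09 without white light 42. The count called in limma was 0, where 0.0219% of all tested loci were called. At an unadjusted p under 0.05 there was 1 locus, against 9.12% of all tested loci. Herbivory libraries lay above both white light libraries at 10 loci and below both at 4, where 19.7% and 20.3% of all tested loci did so.

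The MAH1 total had a log2 fold change of 1.74 ± 0.88 (adjusted p = 0.558 in limma), which was 0.53 without white light 42 and 2.95 without white light 41. Its totals were 393 and 306 FPKM in herbivory leaves, against 239 and 44.1 FPKM in white light, without overlap. BnaA09g15090D had 186 and 134 FPKM in herbivory, against 80.6 and 15.2 FPKM, a log2 fold change of 2.13 ± 1.13 (adjusted p = 0.639 in limma). The locus with the unadjusted p under 0.05 was also of MAH1, BnaC09g15720D (C09, 12663426 to 12669467), at 5.34 and 2.06 FPKM in herbivory, against 0.609 and 0.343 FPKM in white light (log2 fold change 1.58 ± 0.47, adjusted p = 0.370 in limma). CER1 totals were 216 and 175 FPKM in herbivory, against 201 and 66.8 FPKM, which overlap, as do those of KCS6 (199 and 176 FPKM in herbivory) and CER3 (134 and 146 FPKM in herbivory).

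One herbivory value stood out at CER4. BnaC01g04460D had 8.86 and 77.3 FPKM in herbivory 41 and 42, while the other 10 libraries ranged from 24.1 to 322 FPKM. Its neighbours on C01 shared the low value: over 51 expressed loci around it, the median log2 deviation from the median library was -2.35 in herbivory 41, -0.58 in herbivory 42 and -0.16 to 0.17 in the other libraries. The A01 copy, at 67.0 and 60.4 FPKM in herbivory, exceeded the C01 copy 7.56-fold in herbivory 41 and was below it in the other 11 libraries. The C01 log2 fold change of -1.67 ± 0.99 in herbivory over white light includes this library and was -0.18 without it.

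The comparison of MeJA with its 2 controls asks what jasmonate does to wax genes beyond spraying, and only ethanol-UN65 shares the solvent of MeJA. In MeJA over water 31 of 37 loci were higher, with a median of 0.34, and 2 were called, both of MAH1, which is 2 of 37 where 0.449% of all tested loci were called and 0.436% were called higher. MeJA libraries lay above both water libraries at 9 loci and below both at 1, against 16.9% and 17.9% of all tested loci. In MeJA over ethanol-UN65, 32 were higher, with a median of 0.78, and 17 lay above both control libraries, against 21.7% of all tested loci, while 4 lay below both, against 22.9%. The count called there in limma was 0, where 0.00398% of all tested loci were called. At an unadjusted p under 0.05 there were 10, with 8 higher and 2 lower, against 8.73% of all tested loci. MeJA 42 carried the medians, since without it they were -0.10 over water and -0.09 over ethanol-UN65, and over water the median was also -0.19 without water 42.

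The 2 called loci were both of MAH1 and higher in MeJA than in water. BnaCnng60030D, on an unplaced C scaffold (59866233 to 59867863), had 125 and 119 FPKM in MeJA 41 and 42, against 0.207 and 4.87 FPKM in water 41 and 42. In ethanol-UN65 it had 5.47 and 7.16 FPKM, and no library outside MeJA exceeded 17.7 FPKM. Unlike most wax loci it was as high in MeJA 41 as in MeJA 42, and its log2 fold change over water was 5.53 ± 0.81 (adjusted p = 0.0336 in limma). Over ethanol-UN65 the log2 fold change was 4.08 ± 0.81, with an adjusted p of 0.208 in limma.

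BnaC09g15720D was the other. It had 7.0 and 15.9 FPKM in MeJA, against 0.340 and 0.866 FPKM in water and 1.55 and 0.708 FPKM in ethanol-UN65. Both MeJA values exceeded all other libraries, with a log2 fold change over water of 2.88 ± 0.47 (adjusted p = 0.0431 in limma) and over ethanol-UN65 of 2.48 ± 0.47 (adjusted p = 0.203). Neither call held without any 1 of the 4 libraries compared: with 1 of them left out the adjusted p was 0.0513 to 0.225 for BnaCnng60030D and 0.0505 to 0.260 for BnaC09g15720D, while the log2 fold changes were at least 2.34. With the compared groups alone, which leaves the test few degrees of freedom, neither was called either, and over all 12 alternatives the adjusted p ranged from 0.0243 to 0.282 and from 0.0313 to 0.307.

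Further MAH1 loci had MeJA values above every other library without being called. BnaA09g15160D (A09, 8798242 to 8799744) had 34.9 and 58.4 FPKM in MeJA, against 4.04 and 4.74 FPKM in water and 11.4 and 5.15 FPKM in ethanol-UN65 (log2 fold change over water 3.10 ± 0.54, adjusted p = 0.0532 in limma). BnaAnng35920D had 14.2 and 29.7 FPKM in MeJA, against 0 and 1.36 FPKM in water. BnaAnng35910D had 6.03 and 18.5 FPKM, against 0 and 0.436 FPKM in water, and BnaAnng34510D had 4.77 and 9.51 FPKM, against 1.5 and 1.19 FPKM in water. The MAH1 locus next to BnaAnng34510D, BnaAnng34520D, was not higher in MeJA, at 1.05 and 0.842 FPKM, against 2.73 and 0.705 FPKM in water. BnaAnng35910D and BnaAnng35920D lie next to each other on 1 unplaced A scaffold, from 40794779 to 40796147, and may be pieces of 1 gene, and how far these loci share reads with other MAH1 copies is not known.

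The most abundant MAH1 locus did not follow this pattern. BnaA09g15090D had 38.7 and 414 FPKM in MeJA, against 169 and 111 FPKM in water, so that the water values lay between the MeJA replicates (log2 fold change -0.11 ± 1.13). The log2 fold change turned to 1.59 without MeJA 41 and to 0.20 without water 41. BnaC09g51620D and BnaA09g15080D, the MAH1 loci next in mean, had 22.3 and 203 FPKM and 13.2 and 123 FPKM in MeJA, against 95.9 and 52.4 FPKM and 58.9 and 43.0 FPKM in water. On chromosome A09, BnaA09g15080D, BnaA09g15090D and BnaA09g15160D lie within 50722 bases of each other. The ratio of BnaA09g15160D to BnaA09g15090D ran from 0.024 in water 41 to 2.61 in UV-B 41. MAH1 totals of 268 and 997 FPKM in MeJA, against 334 and 222 FPKM in water, sum both kinds of locus and overlap.

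**Figure D3:**
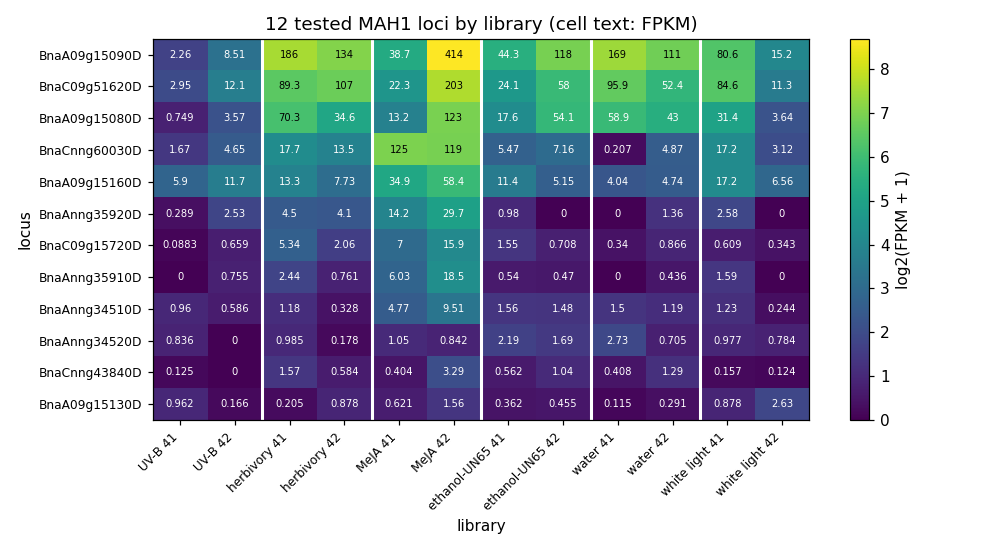
The 12 tested MAH1 loci (rows) in the 12 libraries (columns), coloured by log2(FPKM + 1) with the rescaled FPKM printed in each cell. The upper 3 rows had no more than 12.1 FPKM in UV-B and their highest values in MeJA 42, up to 414 FPKM, while the next 6 rows had their highest values in both MeJA libraries.

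For KCS6, the condensing enzyme, the C06 and A09 copies both had higher means in MeJA than in water. Whether the copies differed from each other was not tested. Its C06 copy BnaC06g25830D (C06, 27504193 to 27506335) had 43.9 and 63.2 FPKM in MeJA, against 21.2 and 12.2 FPKM in water and 27.7 and 20.5 FPKM in ethanol-UN65. Both MeJA values were above all 10 other libraries (log2 fold change over water 1.65 ± 0.38, adjusted p = 0.141 in limma). The abundant A09 copy had 196 and 516 FPKM in MeJA, against 205 and 97.8 FPKM in water, which overlap (log2 fold change 1.16 ± 0.67). The A09 copy exceeded the A07 copy BnaA07g24600D in 12 of 12 libraries, by 2.43- to 12.1-fold. KCS6 totals were 288 and 622 FPKM in MeJA, against 268 and 133 FPKM in water and 207 and 176 FPKM in ethanol-UN65, without overlap in either comparison. Gene totals called among the 9 were 0 in MeJA over water, where 0.84% of all gene totals were called.

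Apart from MAH1 and KCS6, MeJA and water overlapped in the totals of CER1, CER3, CER4, WSD1, ABCG11 and ABCG12. CER1 had 282 and 474 FPKM in MeJA, against 416 and 156 FPKM in water. Its log2 fold change of 0.52 turned to -0.19 without water 42. WSD1 had 67.3 and 251 FPKM in MeJA, against 214 and 55.8 FPKM in water. CER3 had 172 and 527 FPKM in MeJA, against 276 and 109 FPKM in water, and ABCG12 43.4 and 102 FPKM, against 92.1 and 46.2 FPKM. In each of these genes replicate 42 was the higher library of MeJA and replicate 41 the higher of water.

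The 2 spray controls gave no called wax locus. In ethanol-UN65 over water 17 of 37 loci were higher, the median was -0.02, and 0 were called in limma, where 0.00398% of all tested loci were. At an unadjusted p under 0.05 there was 1 locus, against 2.97% of all tested loci. Ethanol-UN65 lay above both water libraries at 7 loci and below both at 0, against 15.6% and 12.9% of all tested loci. The median was 0.27 without water 41 and -0.58 without water 42. The lowest value of this comparison belonged to CER3: BnaA03g10070D (A03, 4512566 to 4517344) was listed at 0 in ethanol-UN65 41 and had 15.1 FPKM in ethanol-UN65 42, against 31.2 and 8.39 FPKM in water (log2 fold change -2.12 ± 1.47, not called). It was also listed at 0 in UV-B 41, with 15.7 FPKM in UV-B 42, against 20.1 and 11.2 FPKM in white light. Over 51 expressed loci around it the median log2 deviation was -2.20 in UV-B 41 and -2.36 in ethanol-UN65 41, and 0.010 to 0.17 in the other 10 libraries. Without UV-B 41 its log2 fold change in UV-B over white light was 0.063, instead of -1.97.

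Water was also set against white light, although spray, cover and light differed together. Of 37 wax loci 20 were higher and 17 lower in water leaves, with a median of 0.11. Water libraries lay above both white light libraries at 3 loci and below both at 6, where 25% and 27% of all tested loci did so. The only called locus was of MYB96 and was lower, 1 of 37 where 1.23% of all tested loci were called and 0.712% were called lower. The median was -0.51 without water 41 and -0.32 without white light 42. CER1 totals of 416 and 156 FPKM in water, against 201 and 66.8 FPKM in white light, overlap, and so do the MAH1 totals of 334 and 222 FPKM, against 239 and 44.1 FPKM.

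MYB96 was the only 1 of the 9 genes whose total differed among the 6 groups, where 10.8% of all gene totals did, so the count is near the background. The adjusted p was 0.0368 in limma's moderated F test with Benjamini-Hochberg adjustment. MYB96 was not tested as a total without BnaA09g06090D, a locus in a low stretch described below. Its totals were 12.3 and 8.15 FPKM in UV-B, 13.5 and 15.2 FPKM in herbivory, 2.00 and 4.52 FPKM in MeJA, 14.0 and 8.05 FPKM in ethanol-UN65, 5.03 and 4.67 FPKM in water, and 11.2 and 15.9 FPKM in white light. MeJA and water held the 4 lowest values. Ethanol-UN65 lay above water without overlap, a difference that was not called. In no pairwise comparison was the total called, where 1.16% of all gene totals were called in water over white light, 0.816% in herbivory over water and 0% in MeJA over ethanol-UN65. The log2 fold change was -1.30 ± 0.37 in water over white light (adjusted p = 0.103 in limma), 1.39 ± 0.37 in herbivory over water (adjusted p = 0.102) and -1.52 ± 0.37 in MeJA over ethanol-UN65 (adjusted p = 0.240).

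The MYB96 locus with calls, BnaA09g06090D (A09, 2951394 to 2953024), was in a low stretch of its chromosome. It was listed at 0 in MeJA 41, water 41 and water 42 and had 0.596 FPKM in MeJA 42, against 1.45 to 3.81 FPKM in the other 8 libraries. It was called lower in water over white light (adjusted p = 0.0385 in limma) and higher in herbivory over water (adjusted p = 0.0331), with no fold given against values listed at 0. Around it, 51 expressed loci had a median log2 deviation of -2.26 in MeJA 41, -0.51 in MeJA 42, -2.20 in water 41 and -2.26 in water 42, and 0.12 to 0.36 in the other libraries. Both calls were lost when any 1 of the 4 libraries compared was left out, with an adjusted p of 0.124 to 0.156 in water over white light and 0.0659 to 0.148 in herbivory over water, and over the 11 alternatives the adjusted p ran from 0.0341 to 0.156 and from 0.0256 to 0.148.

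MYB96 loci outside that stretch were measured as well. BnaA02g33410D (A02, 23963442 to 23964973), the highest of the gene, had 4.22 and 3.03 FPKM in UV-B, 6.69 and 9.05 FPKM in herbivory, 1.07 and 1.91 FPKM in MeJA, 7.07 and 4.41 FPKM in ethanol-UN65, 2.62 and 3.44 FPKM in water, and 5.55 and 8.67 FPKM in white light. MeJA was lowest and water lay below herbivory, ethanol-UN65 and white light without overlap. It differed among the 6 groups (adjusted p = 0.0400 in limma's moderated F test), while its log2 fold changes of -0.99 ± 0.32 in water over white light (adjusted p = 0.139), -1.43 ± 0.32 in MeJA over ethanol-UN65 (adjusted p = 0.237) and 1.13 ± 0.32 in herbivory over water (adjusted p = 0.115) were not called. Summed over the 3 loci outside the stretch, MYB96 had 2.00 and 3.92 FPKM in MeJA and 5.03 and 4.67 FPKM in water, and 6.11 to 12.9 FPKM in the other 8 libraries. MeJA and water thus held the 4 lowest values with BnaA09g06090D set aside too.

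**Figure D4:**
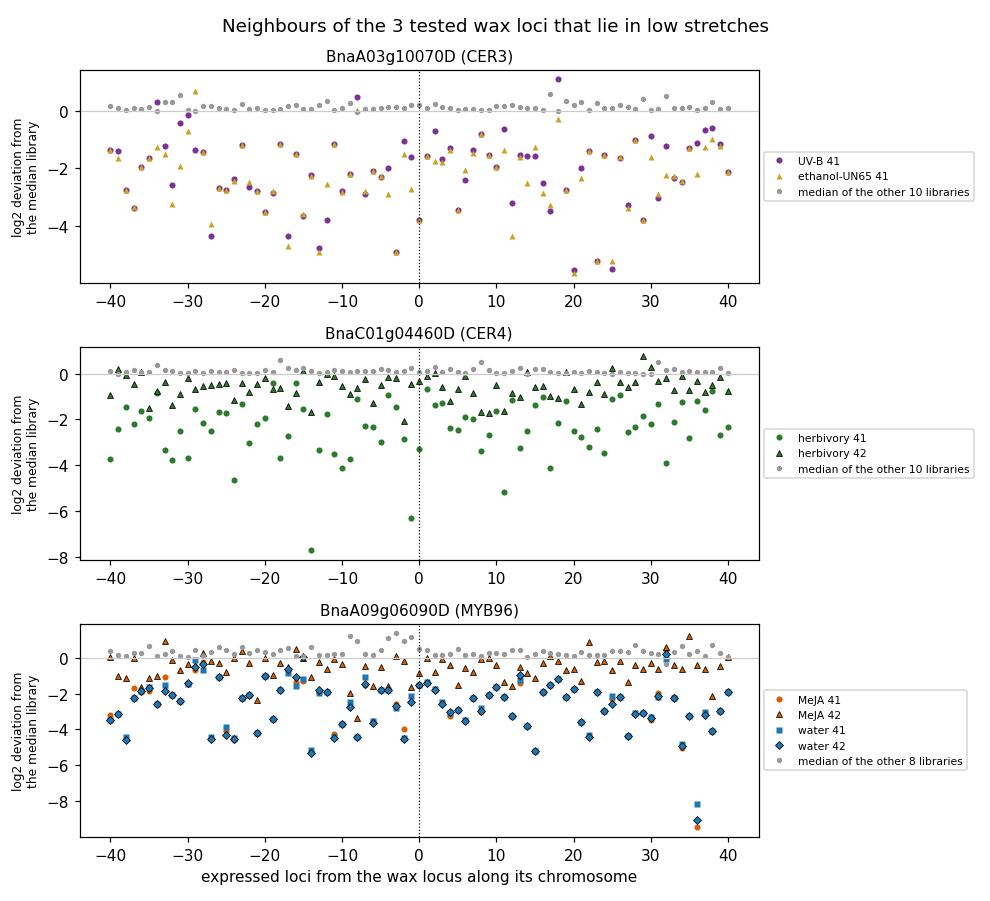
Log2 deviation from the median library of 40 expressed loci on either side of the CER3 locus BnaA03g10070D, the CER4 locus BnaC01g04460D and the MYB96 locus BnaA09g06090D, plotted by their order along the chromosome, with the wax locus at 0. Coloured points are the named libraries and grey points the median of the others, which stays near 0 while UV-B 41 and ethanol-UN65 41 (A03), herbivory 41 (C01), and MeJA 41, water 41 and water 42 (A09) lie lower across the stretch.

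Herbivory was also set against water, although feeding, cage, spray and cover differed together. Of 37 wax loci 23 were higher in herbivory, with a median of 0.20 that turned to -0.15 without water 42. The 1 locus called was the MYB96 locus of the A09 stretch, where 1.06% of all tested loci were called and 0.642% were called higher. Herbivory libraries lay above both water libraries at 9 loci and below both at 3, against 26% and 23.9% of all tested loci. Of the 6 MAH1 loci whose MeJA values exceeded all other libraries, 5 had higher means in herbivory and BnaAnng34510D a lower one, at 1.18 and 0.328 FPKM in herbivory, against 1.5 and 1.19 FPKM in water. BnaCnng60030D had 17.7 and 13.5 FPKM in herbivory, against 0.207 and 4.87 FPKM in water (log2 fold change 2.63 ± 0.81, adjusted p = 0.136 in limma), and BnaC09g15720D had 5.34 and 2.06 FPKM, against 0.340 and 0.866 FPKM (1.48 ± 0.47, adjusted p = 0.143). None of the 6 was called.

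Across the 6 groups, the moderated F test called 8 of the 37 wax loci, which is to be read beside 8.15% of all tested loci. They were 5 MAH1 loci (BnaCnng60030D, BnaC09g15720D, BnaAnng34510D, BnaAnng35910D and BnaAnng35920D), the MYB96 loci BnaA09g06090D and BnaA02g33410D, and the KCS6 locus BnaC06g25830D. No locus of CER1, CER3, CER4, WSD1, ABCG11 or ABCG12 was among them. The leading loci of MAH1 and KCS6 were not among them either.

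Copy pairs of the transporters and of WSD1 were nearly even. ABCG12 on A05 over C06 gave ratios of 0.728 to 1.16, ABCG11 on A06 over C05 0.810 to 1.28, and WSD1 on A05 over C06 0.664 to 1.64. CER4 on A08 stayed below its C03 counterpart in 12 of 12 libraries, with ratios of 0.292 to 0.968.

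Regulators of the cuticle were measured by a list of 12 genes with 39 tested loci. In UV-B over white light 2 of these 39 were called, both higher, where 3.54% of all tested loci were called, so the count is near the background. SHN3, an AP2 factor of the SHINE clade that activates cuticle genes in Arabidopsis, was represented by BnaCnng59450D, with 4.29 and 6.02 FPKM in UV-B, against 0.969 and 0.772 FPKM in white light (log2 fold change 1.70 ± 0.28, adjusted p = 0.0218 in limma). No library outside UV-B exceeded 0.969 FPKM. MYB106, a MYB factor of epidermal cell shape and cuticle in Arabidopsis, had BnaCnng29120D at 14.9 and 9.34 FPKM in UV-B, against 3.16 and 2.39 FPKM (1.77 ± 0.39, adjusted p = 0.0472), the highest 2 of the 12 libraries. The SHN3 call held without UV-B 41 (adjusted p = 0.0220) and was lost without any 1 of the other 3 libraries, up to 0.120, and the MYB106 call was lost without any 1 of the 4, at 0.0720 to 0.196. Over 12 alternatives the adjusted p ran from 0.0195 to 0.277 for SHN3 and from 0.0419 to 0.285 for MYB106.

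DEWAX and WRI4 were higher in all sprayed leaves. Of the 39 regulator loci 2 were called higher in water over white light, where 1.23% of all tested loci were called. In herbivory over water 1 was called higher and 2 lower, where 1.06% of all tested loci were called. DEWAX is an AP2/ERF repressor of wax genes in Arabidopsis, and BnaC09g05370D, its highest locus, had 103 and 108 FPKM in water, against 19.3 and 27.4 FPKM in white light (log2 fold change 2.15 ± 0.41, adjusted p = 0.0498 in limma). In herbivory it had 9.88 and 14.2 FPKM, which against water is a log2 fold change of -3.05 ± 0.41 (adjusted p = 0.0283). MeJA leaves had 119 and 65.8 FPKM and ethanol-UN65 leaves 45.6 and 60.6 FPKM, so the 6 sprayed libraries all exceeded the 6 unsprayed ones, which reached 27.4 FPKM. DEWAX totals were 171 to 233 FPKM in sprayed and 46.1 to 88.4 FPKM in unsprayed libraries.

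WRI4, an AP2 activator of wax genes in Arabidopsis, split the libraries in the same way. BnaC06g40040D had 14.4 and 20.9 FPKM in water, against 2.52 and 3.98 FPKM in white light (log2 fold change 2.13 ± 0.35, adjusted p = 0.0385 in limma), and 3.38 and 2.52 FPKM in herbivory (-2.22 ± 0.35 against water, adjusted p = 0.0365). The sprayed libraries ranged from 9.46 to 20.9 FPKM, above the unsprayed, at 2.52 to 7.84 FPKM. The WRI4 totals nearly met, at 12.8 and 12.9 FPKM in UV-B, against 13.8 FPKM in MeJA 42, the lowest sprayed library. Calls of both genes depended on single libraries: over 12 alternatives the adjusted p of the DEWAX locus was 0.0312 to 0.184 in water over white light and 0.0247 to 0.131 in herbivory over water, and that of WRI4 0.0284 to 0.169 and 0.0318 to 0.165. Of the leave-outs, only the one without herbivory 42 kept a call, that of DEWAX in herbivory over water. A repressor and an activator thus stood high in the same leaves.

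MYB94, a close relative of MYB96 that acts with it on wax genes in Arabidopsis, had totals of 1.65 and 2.14 FPKM in MeJA, against 3.84 and 5.33 FPKM in water and 5.08 and 3.91 FPKM in ethanol-UN65. MeJA was lowest of the 12 libraries, as it was for MYB96, and no MYB94 locus was called. In MeJA over water no regulator was called, with 17 of 39 higher, nor in MeJA over ethanol-UN65. In herbivory over water the third call was SHN2 BnaA09g04580D, at 2.12 and 1.79 FPKM in herbivory and listed at 0 in both water libraries (adjusted p = 0.0329 in limma, 0.0048 to 0.148 over 11 alternatives). It lies in a stretch that was low in 3 libraries, and it was listed at 0 in 9 libraries in all.

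**Figure D5:**
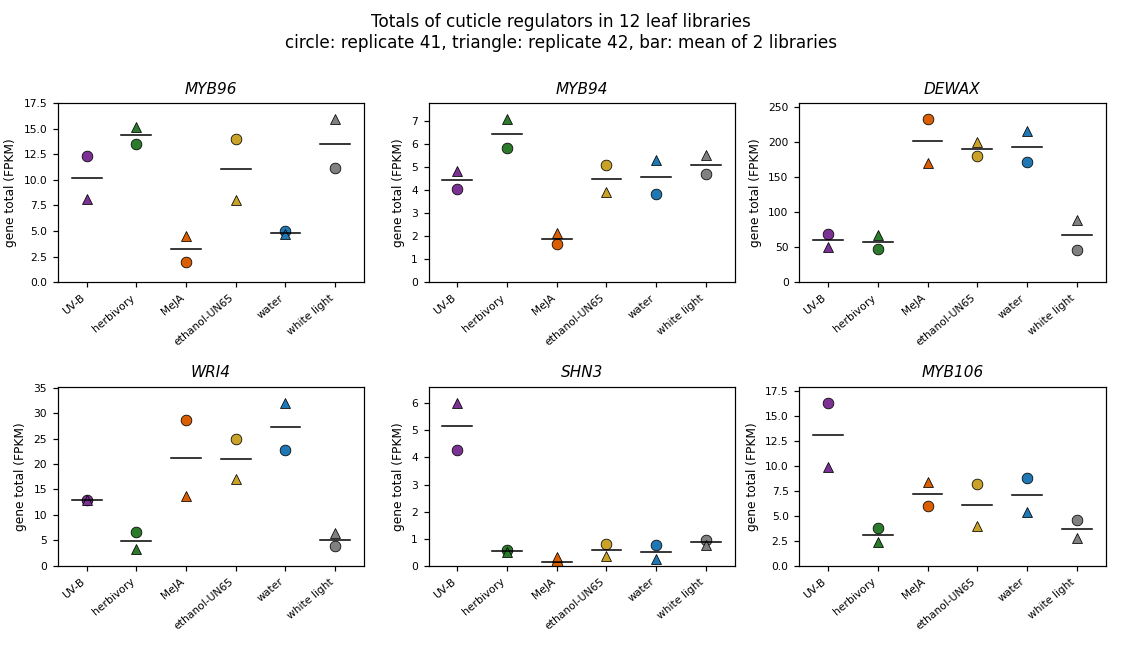
Gene totals of 6 cuticle regulators in rescaled FPKM, from 0 on each vertical axis, for the 6 groups. Circles are replicate 41, triangles replicate 42 and bars the mean of both. DEWAX was at 171 to 233 FPKM in MeJA, ethanol-UN65 and water and at 46.1 to 88.4 FPKM in the other groups, and SHN3 and MYB106 were highest in UV-B.

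Abscisic acid is the hormone that induces MYB96 in Arabidopsis, and 5 genes of its response were matched, with 26 tested loci. In water over white light 19 of these were lower and 1 was called lower, where 0.712% of all tested loci were, while in herbivory over water 22 were higher and 3 were called higher, where 0.642% of all tested loci were. The highest locus of the list, LTP3 BnaCnng42990D, had 48.7 and 574 FPKM in herbivory 41 and 42, against 4.19 and 25.4 FPKM in water, so its herbivory replicates differ widely. Whether these genes and MYB96 are linked was not tested.

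Loci most like the leading copies in their pattern over the 12 libraries were found among 17215 loci by Pearson r of log2 values, given as a description, since the points share libraries and treatments. For the KCS6 locus BnaA09g28510D they were KCS1 BnaC08g46130D (0.96), BnaA08g04360D, a TLC lipid-sensing domain protein (0.95), and BnaC07g46060D, aldehyde dehydrogenase ALDH3F1 (0.94). For CER1 they were BnaC04g51420D, matched to the acyl-CoA synthetase gene LACS1 (0.94), BnaC09g08390D, a lipid-transfer protein family member (0.94), and the proline-rich protein locus BnaA04g11970D (0.94). For the MYB96 locus BnaA02g33410D they were BnaAnng06240D, a ribosomal protein L7Ae family member (0.92), BnaA10g20830D, with no Arabidopsis match (0.91), and BnaAnng39590D, matched to LACS1 (0.90).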

How the data were processed

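Leaf RNA-seq libraries, 2 in each of 6 groups by the labels, were analysed from the deposited single-library matrix. The authors aligned the reads with TopHat2 and made FPKM with Cufflinks 2.2.1. The matrix is named as counts, but averaging its 2 UV-B columns gives the authors' UV-B group FPKM at each of 101040 loci (relative tolerance 0.0001), so no count model was run. The authors also deposited 4 comparison tables scaled separately, with group FPKM and the log2 fold changes and the p-values, with q-values, of their own tests, from which only annotation was used. A further 22 single-library columns match no label and were not used. The tables name no genome build for their coordinates.

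As scale factor for a library served its median ratio, over 46905 loci, to the mean of the libraries, and log2 was taken after adding 1. All loci that reached 1 FPKM in 2 or more libraries entered limma 3.58.1 under R 4.3.3 (trend, a mean per group, 12 libraries, no block), 1 locus marked as having too much data being left out. The median SE was 0.36. Gene totals were fitted likewise. Calls were tested on simulated data with known changes and noise drawn independently for each locus. Such data lack the replicate shifts shared by many loci and the low stretches seen here, so they cannot show how calls fare with these. Low stretches were windows of 51 expressed loci with a median log2 deviation of -1 or less.

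The members and gene lists were chosen with earlier results of these data known. Named are the highest-mean locus of each member gene, called members, called regulators and the highest locus of each list of wax, cuticle and hormone genes that is discussed; other member loci named, and MYB94, were chosen after their values were seen. GPAT8, RAB18, CER1-LIKE1 and RD29A matched no locus. Whether replicate numbers pair libraries was checked: deviations correlated above 0.1 in 4 of 15 pairs of groups (-0.37 to 0.41), so they do not. Alternatives were pseudocounts of 0.1 and 0.5, values as deposited, equal totals, the replicate block, leaving out each library, the compared groups alone, no filter, and, chosen after seeing the data, no loci of low stretches.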

Additional observations from a re-analysis of the deposited data

How the results depend on the processing

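Of 8 counts of wax loci called, 4 moved by over 1.5 times under some alternative. In MeJA over water the 2 calls became 0 with a pseudocount of 0.1, no filter or the compared groups alone, 1 with a pseudocount of 0.5 and 4 with equal totals. The call in water over white light became 0 with equal totals, no filter, the compared groups alone or without loci in low stretches, and that in herbivory over water became 0 with the compared groups alone or without loci in low stretches. The 8 loci differing among the 6 groups became 4 with a pseudocount of 0.1, 5 with 0.5 and 2 with no filter. Leaving out each library in turn gave 0 to 0 calls in MeJA over water, water over white light and herbivory over water, and 1 to 7 loci differing among the 6 groups. The replicate block, for numbers that do not pair the libraries, gave 0 calls in MeJA over water and 4 loci differing among the groups.

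Leaving out 1 library changed the sign of 13 log2 fold changes of 11 named values, whose ranges follow. In UV-B over white light these were -0.87 to 0.70 for CER1 BnaCnng09200D (also 0.11 without UV-B 42), -0.82 to 0.30 for CER3 BnaA02g08090D, -1.76 to 0.43 for WSD1 BnaA05g12980D, -1.04 to 0.11 for the CER3 total and -1.70 to 0.32 for the WSD1 total, each highest without white light 41. ABCG11 BnaC05g13800D ran from -0.86 to 0.011, highest without UV-B 42, and CER3 BnaA03g10070D from -4.0 to 0.063, highest without UV-B 41. CER1 ran from -0.046 without white light 42 to 1.53 in herbivory over white light and from -0.19 without water 42 to 1.22 in MeJA over water. In MeJA over water MAH1 BnaA09g15090D ran from -1.80 to 1.59 (highest without MeJA 41, and 0.20 without water 41) and the MAH1 total from -0.023 without MeJA 42 to 1.87. Other named fold changes kept their sign under every alternative. The cause was not tested beyond the fewer loci or libraries that an alternative leaves. Some moved by over 1.5 times: without white light 41 the UV-B over white light values were -1.07 for the KCS6 total, -1.0 for the CER4 total and -0.65 for the MAH1 total. The read depth behind the FPKM is unknown.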
